A study of Homo sapiens with 6 samples.

Results

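The gelsolin family and the filamins are proteins that cut, cap and crosslink actin filaments, and 9 of their genes were followed here, among 58395 genes in the table: GSN, VIL1, AVIL, SVIL, FLII, CAPG, SCIN, FLNA and FLNC. They were listed by symbol, and GSN led the choice because its level separated the sorted fractions about 2-fold, so its difference between the fractions is given as a description with no test. The libraries came from M14, an established human melanoma cell line, grown as non-adherent spheres (melanospheres), broken up mechanically, stained with an antibody against CD20 and sorted by flow cytometry. There were 3 CD20-positive and 3 CD20-negative libraries of polyadenylated RNA, numbered 1 to 3 in each group, and all 6 came from the same line and culture form with no other treatment named. Whether the replicates were separate cultures is not stated, and every p-value therefore reflects library-to-library spread that may be technical. Levels are FPKM, a count of sequenced fragments divided by exon length and by a size given to each library, which was not its plain fragment count.

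Gelsolin-family proteins are built from repeats of 1 actin-binding module. In the presence of calcium gelsolin severs a filament and stays on its fast-growing end, which stops growth there until membrane phosphoinositides remove it. CapG caps ends and does not sever, whereas villin, advillin and supervillin carry an extra headpiece at the end of the protein. Filamins are long paired rods that tie crossing filaments into a network and link it to integrins at the membrane. Several actin genes are known targets of serum response factor (SRF), which binds the sequence called the CArG box.

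The regions just before the annotated starts were read to show which of these genes carry a CArG box next to a start, as GSN and FLNA both stood higher in the CD20-positive libraries. The RefSeq table (GRCh38.p14) held 19 starts for 8 of the 9 genes, and the box was searched on both strands in the 250 bases before each start. It was found at 2 of the 19 starts, in 2 genes, FLNA and SVIL, against 1.16% of 35116 starts of all genes. None of the 6 GSN starts had one. The FLNA and SVIL regions are printed with the box in capitals, together with 1 GSN region without a box, taken at the 1 RefSeq start of the gene that falls within a GENCODE transcript of it.
FLNA, chrX:154374635-154374884, minus strand: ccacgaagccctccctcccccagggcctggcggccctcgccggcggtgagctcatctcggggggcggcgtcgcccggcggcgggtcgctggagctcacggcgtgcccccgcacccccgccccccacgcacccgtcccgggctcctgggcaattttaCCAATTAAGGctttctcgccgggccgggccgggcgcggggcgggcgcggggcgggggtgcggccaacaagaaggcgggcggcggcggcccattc
SVIL, chr10:29634972-29635221, minus strand: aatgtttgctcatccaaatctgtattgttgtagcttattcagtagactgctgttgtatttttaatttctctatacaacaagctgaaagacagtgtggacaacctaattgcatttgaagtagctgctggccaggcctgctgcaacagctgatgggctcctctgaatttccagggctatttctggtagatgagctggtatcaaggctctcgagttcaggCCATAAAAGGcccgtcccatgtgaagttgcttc
GSN, chr9:121267912-121268161, plus strand: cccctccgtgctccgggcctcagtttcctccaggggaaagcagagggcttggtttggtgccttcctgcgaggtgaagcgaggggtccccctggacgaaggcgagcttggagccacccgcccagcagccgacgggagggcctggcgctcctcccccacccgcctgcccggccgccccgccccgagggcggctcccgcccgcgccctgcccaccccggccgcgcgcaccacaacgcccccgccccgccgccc
Each sequence runs 5′ to 3′ and ends at the base before the start. The box begins 94 bases before the start in FLNA and 33 bases before it in SVIL. The CArG start of SVIL is 1 of 4 listed for that gene, and gene-level values cannot say which start was used. A match is a run of letters, and whether SRF bound there was not measured.

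Facts of all libraries bear on what follows. The files held 15651172 to 17479732 fragments per CD20-positive library and 16666543 to 17915936 per CD20-negative library, recovered from the FPKM values and exon lengths. MS4A1, which encodes CD20, stood at 1.16 ± 0.170 FPKM in CD20-positive libraries, against 0.297 ± 0.0940 FPKM in CD20-negative libraries (SD, n = 3). Genes of the mitochondrial genome took 11.9 to 20.6% of fragments in CD20-positive and 4.25 to 5.73% in CD20-negative libraries. Cytosolic ribosomal protein genes took 2.86 to 4.57% in CD20-positive and 7.13 to 7.46% in CD20-negative libraries. Both shares separated the groups, and their part in the differences below was not tested. Of 7 melanocyte markers 2 averaged at least 1 FPKM, namely PMEL and MITF, while the highest single value was 0.0717 FPKM for SOX10, 0.262 FPKM for MLANA and 0.0207 FPKM for TYR, so these defining markers of the labelled lineage were at or near 0. The melanocyte list summed to 17.3 to 35.7 FPKM in CD20-positive libraries, against 11.1 to 21.4 FPKM in CD20-negative libraries. Of 5 leukocyte and macrophage markers 0 averaged 1 FPKM, with a summed level of 0.253 to 0.440 FPKM in CD20-positive libraries, against 0.119 to 0.253 FPKM in CD20-negative libraries. Of 6 B-lineage markers, the sorted gene MS4A1 among them, 0 averaged 1 FPKM, and they summed to 1.72 to 3.42 FPKM in CD20-positive libraries, against 1.02 to 1.23 FPKM in CD20-negative libraries. Of 6 muscle markers 1 averaged at least that, DES, with MYH11, ACTG2 and MYOD1 at 0 in every library and a summed level of 7.35 to 15.2 FPKM in CD20-positive libraries, against 10.6 to 11.0 FPKM in CD20-negative libraries. Of 6 epithelial markers 3 did, KRT8, KRT18 and EPCAM, and that list summed to 389 to 488 FPKM in CD20-positive libraries, against 322 to 447 FPKM in CD20-negative libraries. Of 6 fibroblast markers 3 averaged at least 1 FPKM and the list summed to 104 to 143 FPKM in CD20-positive libraries, against 62.5 to 85.5 FPKM in CD20-negative libraries, carried by COL3A1 and COL1A1, whereas THY1, DCN and LUM stayed at or near 0. That list shared the direction of the group difference of GSN and FLNA, and its part was not tested. In bulk RNA, fewer cells of a type and less RNA per cell cannot be told apart.

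GSN and FLNA were higher in the CD20-positive libraries with no overlap between the groups, at ratios of 2.05 and 1.34. FLNC was higher within each replicate number, with groups that overlapped. CAPG, SVIL and FLII had pairs in both directions, AVIL and SCIN lay under 1 FPKM in every library, and VIL1 had at most 3 fragments in any library. Scaling each library to the same FPKM total turned the sign for FLNA and SVIL, and put the median of all tested genes at -0.50. Relative to the median FLNA stood at 0.42 as deposited and 0.40 with that total, and SVIL at 0.17 and 0.18.

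Of the 9 genes, 4 (FLNA, CAPG, GSN and SVIL) averaged at least 10 FPKM and entered the test across all genes, 2 more (FLNC and FLII) averaged at least 1 FPKM, and 3 (AVIL, SCIN and VIL1) lay under 1 FPKM. FLNA was the most abundant, followed by CAPG, GSN and SVIL. The test was limma on log2(FPKM + 1) with Benjamini-Hochberg adjustment over the 4503 genes at 10 FPKM or more and a threshold of 0.05, fitted once without a block and once with replicate number as the block (the paired fit). Differences are CD20-positive minus CD20-negative on that log2 scale, which understates the change of low genes. Unblocked, 0.0222% of tested genes were called, and in the paired fit 21.2%. With genes down to a mean of 1 FPKM these shares were 0.0076% and 5.83%. Counting GSN apart, the other tested members gave 0 of 3 calls in either fit. At an unadjusted p under 0.05 each fit had 1 of these 3 (FLNA), where 13.5% of all tested genes were under 0.05 without the block and 32.6% in the paired fit. Limma with voom weights on recovered fragments and no block called 0 members and 0 of all tested genes. With the block voom called 0 of the 3 other tested members, where 21.5% of all tested genes were called.

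**Figure D1:**
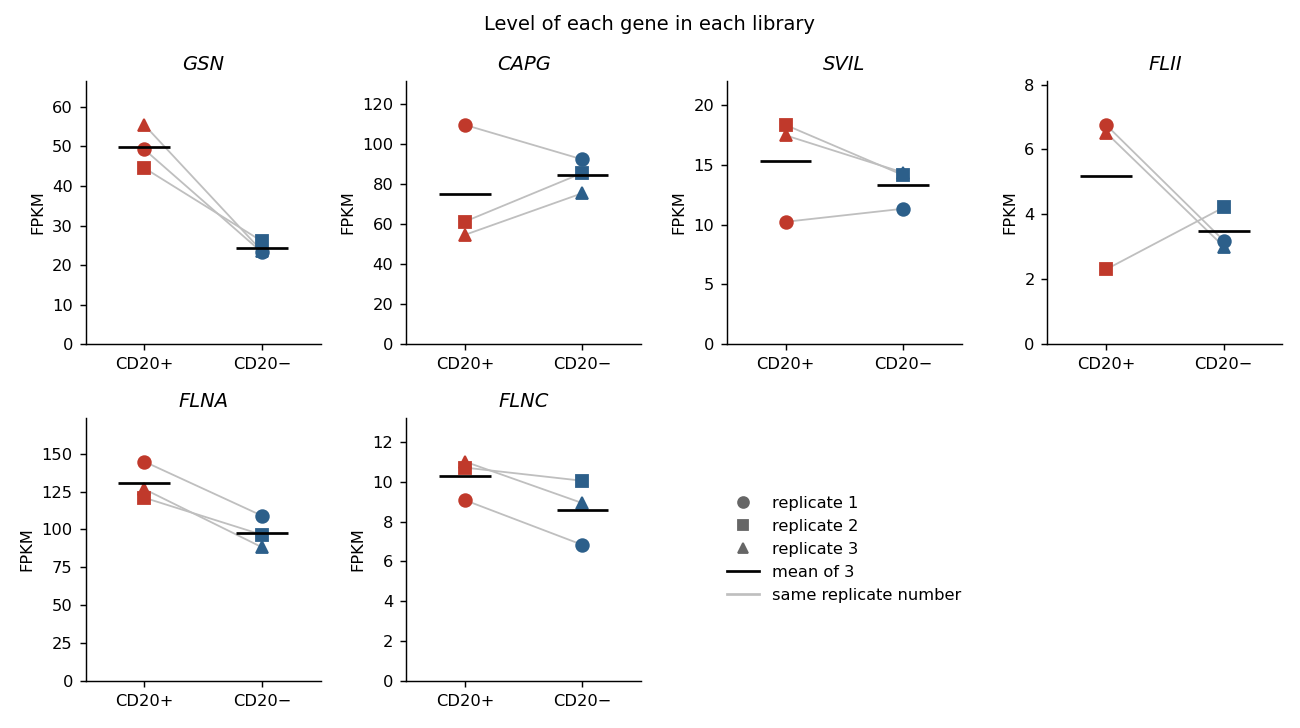
FPKM of each gene in each of the 3 CD20-positive (left, red) and 3 CD20-negative (right, blue) libraries, with marker shape for the replicate number, a bar for the group mean and grey lines joining the same replicate number; every axis starts at 0. GSN and FLNA do not overlap between the groups, whereas replicate 1 is the highest of its group for CAPG and the lowest for SVIL in both groups.

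GSN, gelsolin (ENSG00000148180, GRCh38 chromosome 9, 121207794 to 121332843, plus strand), measured 49.2, 44.6 and 55.4 FPKM in CD20-positive libraries 1, 2 and 3, against 23.2, 26.0 and 23.6 FPKM in CD20-negative libraries 1, 2 and 3. Every CD20-positive library lay above every CD20-negative one. The means were 49.7 ± 5.46 FPKM in CD20-positive libraries, against 24.3 ± 1.54 FPKM in CD20-negative libraries (SD, n = 3), a ratio of 2.05, and the log2 difference was 1.00 ± 0.15 (SE). The libraries held 7870 to 9658 GSN fragments in the CD20-positive group and 4812 to 5136 in the CD20-negative group. Within the replicate numbers the ratio was 2.12, 1.71 and 2.35. A ratio of at least 2 with no overlap was found for 46 of the 4503 tested genes (1.02%), which is the background for a gene picked on that ground. Exons of 2 antisense genes, GSN-AS1 among them, cover 2.53% of the GSN exon bases on the opposite strand. Gelsolin exists as a secreted and a cytoplasmic protein made from different starts, and the gene-level values do not separate them.

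CAPG, the capping protein without severing activity (ENSG00000042493, chromosome 2, 85394748 to 85418432), measured 109.5, 61.2 and 54.6 FPKM in CD20-positive libraries and 92.3, 85.5 and 75.4 FPKM in CD20-negative libraries. CD20-positive replicate 1 had the highest value of all 6 and the other CD20-positive libraries the 2 lowest, so the groups overlapped. The log2 difference was -0.23 ± 0.28 (SE; limma adjusted p = 0.718, and 0.397 in the paired fit), with 1 of 3 pairs higher. Without CD20-positive replicate 1 the difference was -0.53 and was called (limma, adjusted p = 0.0477), and without replicate 1 in both groups it was -0.47 in the paired fit (adjusted p = 0.0202). In these settings 17.6% and 26.9% of all tested genes were called. With the FPKM total the difference was -0.74 (limma, adjusted p = 0.0243, and 0.00426 in the paired fit), where 40.7% and 54.5% of all tested genes were called. Relative to the median of all tested genes it was -0.22 as deposited and -0.24 with that total. No other annotated gene shares exon bases with CAPG.

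SVIL, supervillin, a large membrane-associated protein that binds actin and myosin II (chromosome 10, 29457338 to 29736781), measured 10.2, 18.3 and 17.5 FPKM in CD20-positive libraries and 11.3, 14.1 and 14.3 FPKM in CD20-negative libraries. Replicate 1 was the lowest in both groups. The difference was 0.16 ± 0.23 (SE, limma adjusted p = 0.773, and 0.491 in the paired fit), and 2 of 3 pairs were higher. With each library scaled to the same FPKM total the sign turned (-0.32), with the median of all tested genes at -0.50. Relative to the median of its setting SVIL stood at 0.18, against 0.17 as deposited. FLII, flightless homologue, which joins gelsolin repeats to leucine-rich repeats (chromosome 17, 18244836 to 18258916), measured 6.76, 2.31 and 6.52 FPKM in CD20-positive libraries, against 3.19, 4.22 and 3.01 FPKM in CD20-negative libraries. CD20-positive replicate 2 held the lowest FLII value of all 6 and the other CD20-positive libraries the 2 highest. FLII averaged 5.19 ± 2.50 FPKM in CD20-positive libraries, against 3.47 ± 0.650 FPKM in CD20-negative libraries (SD, n = 3; exact permutation test, two-sided, p = 0.4). Fitted among genes down to 1 FPKM, FLII was not called (difference 0.38, adjusted p = 0.761, and 0.684 in the paired fit, in limma).

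The remaining gelsolin-family genes lay under 1 FPKM. SCIN, scinderin (also called adseverin), which severs filaments like gelsolin, ranged from 0.285 to 0.631 FPKM in CD20-positive and from 0.398 to 0.613 FPKM in CD20-negative libraries, with 50 to 141 fragments per library. AVIL, advillin, known from sensory neurons, ranged from 0.473 to 0.530 FPKM in CD20-positive and from 0.457 to 0.652 FPKM in CD20-negative libraries. VIL1, villin of intestinal microvilli, was at the limit of detection, with 0 to 1 fragments per CD20-positive and 0 to 3 per CD20-negative library, and USP37 exons cover 44.0% of its exon bases on the opposite strand. The groups overlapped for all 3 (exact permutation test, p = 1 for SCIN, 1 for AVIL and 0.9 for VIL1, n = 3 each). In limma without a filter on low values the log2 difference was -0.03 ± 0.14 (SE; adjusted p = 0.968) for SCIN and -0.02 ± 0.11 (SE; adjusted p = 0.976) for AVIL. For VIL1 a difference was not detectable at this depth. VILL, a villin-like gene of the same family outside the 9, ranged from 0.501 to 0.723 FPKM in CD20-positive and from 0.197 to 0.528 FPKM in CD20-negative libraries.

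FLNA, filamin A, the widespread filamin of non-muscle cells (ENSG00000196924, chromosome X, 154348524 to 154374638, minus strand), measured 144.8, 121 and 126.7 FPKM in CD20-positive libraries and 109.1, 96.5 and 88.3 FPKM in CD20-negative libraries. Each CD20-positive library lay above each CD20-negative one. The means were 131 ± 12.5 FPKM in CD20-positive libraries, against 98.0 ± 10.5 FPKM in CD20-negative libraries (SD, n = 3), a ratio of 1.34 (exact permutation test, two-sided, p = 0.1, the lowest value possible for groups of 3). The log2 difference of 0.41 ± 0.18 (SE) was not called (limma, unadjusted p = 0.0477, adjusted p = 0.362, and 0.121 in the paired fit), with 3 of 3 pairs higher at ratios of 1.33, 1.25 and 1.43. FLNA was the 1 of the 3 other tested members with no overlap, where 19.6% of tested genes had none, 12.3% higher and 7.22% lower. Without replicate 1 in both groups the paired fit called it (limma, adjusted p = 0.0399), as it did 26.9% of all tested genes, and when each library was scaled to the same FPKM total its difference was -0.10, with the median of all tested genes at -0.50.

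FLNC, filamin C, the isoform of striated muscle (chromosome 7, 128830377 to 128859274), measured 9.07, 10.7 and 11.0 FPKM in CD20-positive libraries and 6.83, 10.04 and 8.92 FPKM in CD20-negative libraries. It was higher in 3 of 3 pairs, by ratios of 1.33, 1.07 and 1.23, but the groups overlapped (means 10.3 ± 1.04 FPKM in CD20-positive libraries, against 8.60 ± 1.63 FPKM in CD20-negative libraries, SD, n = 3; exact permutation test, p = 0.2). Higher in all 3 pairs held for 21.8% of the genes at 1 FPKM or more (24.6% at 10 FPKM or more), and groups without overlap for 15%. In limma at that filter FLNC was not called (difference 0.24, adjusted p = 0.691, and 0.336 in the paired fit).

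**Figure D2:**
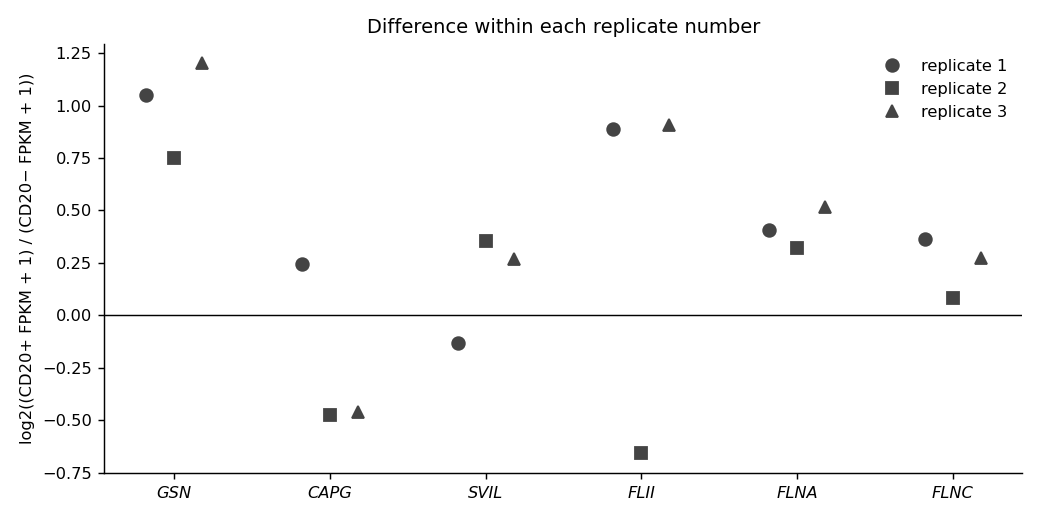
Difference between the CD20-positive and CD20-negative library of each replicate number, as log2 of the ratio of FPKM + 1, for each gene at 1 FPKM or more. The 3 values of GSN, FLNA and FLNC lie above 0, whereas CAPG and SVIL change sign at replicate 1 and FLII at replicate 2. Scaling to the FPKM total turns the mean difference of FLNA and SVIL below 0, with the median of all tested genes at -0.50.

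**Figure D3:**
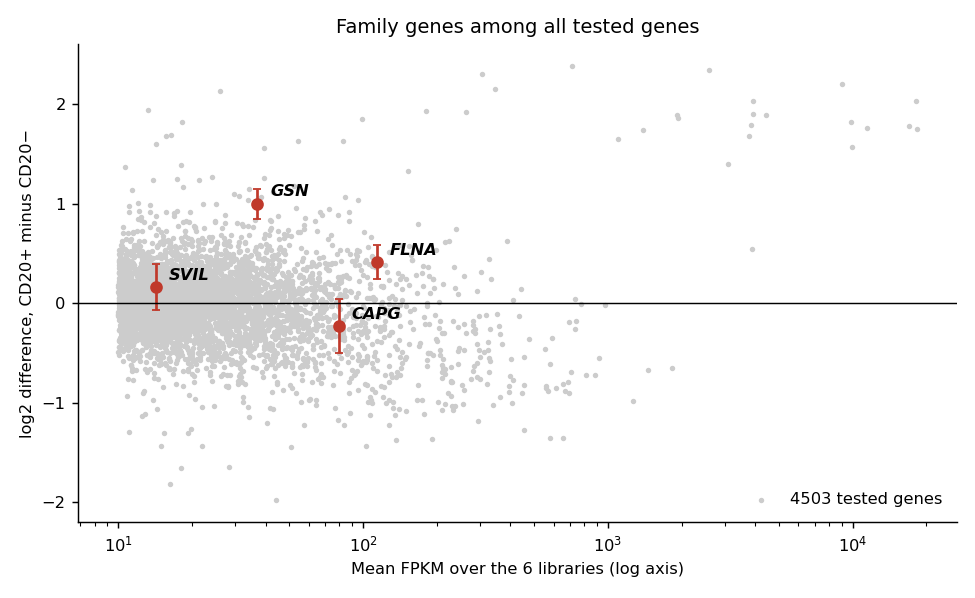
Mean FPKM over the 6 libraries (log axis) against the log2 difference, CD20-positive minus CD20-negative, for 4503 tested genes (grey), with the 4 tested members in red; bars are the SE of the fit without the block. GSN lies at 1.00, with 1.18% of the tested genes above it, and FLNA at 0.41, with 9.82% above it. With each library scaled to the same FPKM total the signs of FLNA and SVIL turn, with the median of all tested genes at -0.50.

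In the gelsolin family the share of GSN, and likewise that of CAPG, did not overlap between the CD20-positive and CD20-negative groups. GSN made up 27.8, 34.8 and 40.8% of the family's summed FPKM in CD20-positive and 17.7, 19.8 and 19.9% in CD20-negative libraries, and CAPG made up 61.9, 47.9 and 40.2% in CD20-positive and 70.4, 65.1 and 63.9% in CD20-negative libraries. The ratio of GSN to CAPG was 0.450, 0.727 and 1.02 in CD20-positive and 0.252, 0.305 and 0.312 in CD20-negative libraries. These shares and ratios contain GSN, which was chosen on the same contrast, and are a description.

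**Figure D4:**
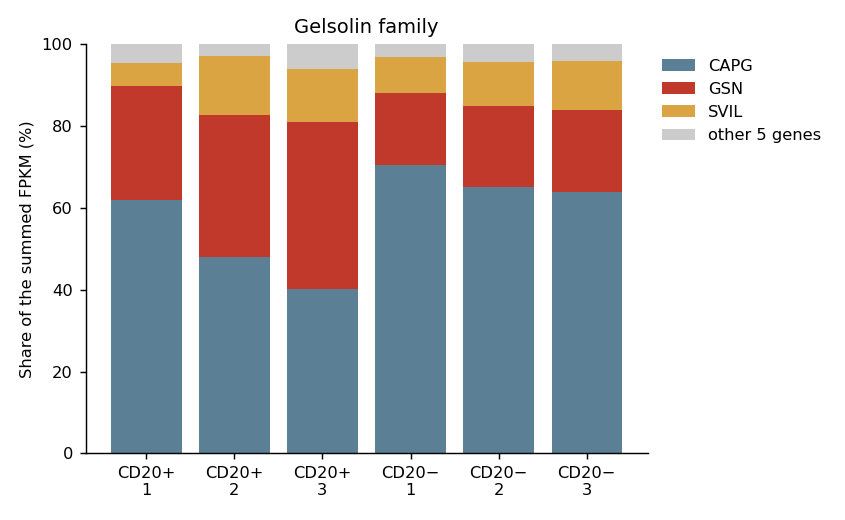
Share of the summed FPKM of the gelsolin family, VILL included, taken by each gene in each library, in percent; numbers under the bars are replicate numbers. GSN takes 27.8 to 40.8% in CD20-positive and 17.7 to 19.9% in CD20-negative libraries.

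Over the 6 libraries, Pearson r between members on log2(FPKM + 1) was 0.86 for GSN and FLNA, 0.64 for GSN and FLNC, 0.20 for FLNA and FLNC and 0.74 for SVIL and FLNC. It was -0.95 for SVIL and CAPG, -0.65 for CAPG and FLNC and -0.36 for GSN and CAPG. These are descriptions over libraries that share a group or a replicate number, and those with GSN draw on the difference it was chosen for. In replicate 1 the level of SVIL was 0.572 times the mean of replicates 2 and 3 in CD20-positive and 0.795 times in CD20-negative libraries. For CAPG it was 1.89 times in CD20-positive and 1.147 times in CD20-negative libraries, and for GSN 0.985 times in CD20-positive and 0.937 times in CD20-negative libraries. Among 4193 other protein-coding genes the 5 most like GSN were ITGB4 (r = 0.998), TTYH3, WFS1, APLP1 and ANGPTL4 (r = 0.991), and 230 genes had r above 0.9. ITGB4, the integrin chain of hemidesmosomes, had 42.8 ± 6.61 FPKM in CD20-positive libraries, against 19.6 ± 1.44 FPKM in CD20-negative libraries (SD, n = 3). The 5 most like FLNA were ITGA3 (r = 0.999), SLC3A2, SERPINH1, MCAM and LMNA (r = 0.990), and 163 genes had r above 0.9. ITGA3, an integrin chain that binds laminin, had 33.2 ± 5.67 FPKM in CD20-positive libraries, against 20.8 ± 4.02 FPKM in CD20-negative libraries. Genes picked for likeness to GSN or FLNA share the group difference of those genes by the choice.

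The annotated exon length of genes moved with the contrast. This length is the exon bases annotated for a gene, and the length of the transcripts present was not measured. The median log2 difference over protein-coding tested genes was -0.22 in the fifth of genes with the shortest exon length (381 to 2476 bases), -0.07, 0.01 and 0.05 in the next bins and 0.10 in the longest (6791 to 36852 bases, n = 839). GSN (11018 bases), FLNA (10585) and SVIL (9937) lie in the longest bin, and CAPG (2607) in the second shortest, where the median was -0.07. In the longest bin 0.119% of genes had a greater difference than GSN, 11.3% than FLNA and 38.6% than SVIL. Groups without overlap, higher in CD20-positive as for FLNA, were found for 15.7% of that bin, against 12.3% of all tested genes. In the second shortest bin 72.1% stood above CAPG. The part of exon length in these differences was not tested.

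The rest of the actin machinery was set beside the families with 82 genes in 6 lists drawn up by function. Of these 55 were tested, and limma without the block called 0 of them, where 0.0222% of all tested genes were called. At an unadjusted p under 0.05 there was 1 (MYH9), where 13.5% of all tested genes were. The voom fit without the block called 0 of the 55 and 0 of all tested genes. With the block it called 5 of the 55, where 21.5% of all tested genes were called. With pairs, limma called 3 of the 55, each lower. That is 5.45% lower and 0 higher, where 11.3% of all tested genes were called lower and 9.93% higher, and with genes down to 1 FPKM it called 0 of 69 (8 at an unadjusted p under 0.05, where 21.3% of all genes at that filter were). The median difference of the 55 was -0.16, where that of all tested genes was -0.01.

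Genes of filament turnover and monomer binding had 0 of 10 higher, 1 lower and 9 not called in the paired fit, with a median of -0.30. The 1 called was DSTN, destrin, an actin-depolymerising factor, at 41.1 ± 28.05 FPKM in CD20-positive libraries, against 57.8 ± 26.2 FPKM in CD20-negative libraries (SD, n = 3; difference -0.59, limma paired adjusted p = 0.00459, and 0.591 without the block). The most abundant were thymosins, which sequester actin monomers, and a profilin, and the paired fit of all 6 libraries called none of them. With the block, voom called TMSB10 and TMSB4X, where 21.5% of all tested genes were called. Without replicate 1 in both groups the paired fit called TMSB10, TMSB4X and PFN1, where 26.9% were. TMSB10 had 1491 ± 826 FPKM in CD20-positive libraries, against 2173 ± 548 FPKM in CD20-negative libraries. TMSB4X had 564 ± 421 FPKM in CD20-positive libraries, against 855 ± 505 FPKM in CD20-negative libraries, and PFN1 had 193 ± 87.0 FPKM in CD20-positive libraries, against 228 ± 45.8 FPKM in CD20-negative libraries.

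Capping, bundling and crosslinking genes had 1 of 11 lower and 10 not called, with a median of -0.07. CAPZA2, a subunit of the heterodimeric protein that caps the same filament ends as CapG and gelsolin, was the 1 called, at 8.35 ± 2.83 FPKM in CD20-positive libraries, against 11.8 ± 4.51 FPKM in CD20-negative libraries (difference -0.44, limma paired adjusted p = 0.0378, and 0.538 without the block). The bundling protein FSCN1 had 211 ± 106 FPKM in CD20-positive libraries, against 197 ± 50.3 FPKM in CD20-negative libraries. The membrane-associated MARCKS had 66.3 ± 26.2 FPKM in CD20-positive libraries, against 56.8 ± 20.3 FPKM in CD20-negative libraries. MARCKSL1 had 56.1 ± 19.8 FPKM in CD20-positive libraries, against 68.0 ± 9.38 FPKM in CD20-negative libraries. FSCN1, MARCKS and MARCKSL1 were not called in the paired fit of all libraries.

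Nucleation and elongation genes had 0 of 13 called, with a median of -0.21. The most abundant were 2 parts of the Arp2/3 complex, which starts branched filaments, and cortactin, which stabilises the branches. ACTR2 had 48.3 ± 12.5 FPKM in CD20-positive libraries, against 53.0 ± 11.0 FPKM in CD20-negative libraries. ARPC3 had 36.5 ± 16.3 FPKM in CD20-positive libraries, against 42.0 ± 17.2 FPKM in CD20-negative libraries, and cortactin, CTTN, had 51.3 ± 4.35 FPKM in CD20-positive libraries, against 46.1 ± 4.29 FPKM in CD20-negative libraries.

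Actins, non-muscle myosin II and tropomyosins had 1 of 12 lower and 11 not called, with a median of -0.22. The cytoplasmic actin gene ACTB had 992 ± 439 FPKM in CD20-positive libraries, against 962 ± 197 FPKM in CD20-negative libraries, and ACTG1 had 680 ± 225 FPKM in CD20-positive libraries, against 791 ± 76.0 FPKM in CD20-negative libraries. The 1 called was the myosin light chain MYL12B, at 61.3 ± 24.0 FPKM in CD20-positive libraries, against 91.0 ± 32.1 FPKM in CD20-negative libraries (difference -0.58, limma paired adjusted p = 0.00953, and 0.469 without the block). MYL12B is nearly identical to MYL12A, and the actin and thymosin genes have processed copies in the genome, so their single values are uncertain where reads were split.

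Membrane linkers and filamin partners had 0 of 4 called, with a median of 0.19. With the FPKM total that median was -0.32, which relative to the median of all tested genes is 0.18, against 0.20 as deposited. Moesin, MSN, which ties filaments to the membrane, had 164 ± 46.3 FPKM in CD20-positive libraries, against 144 ± 39.5 FPKM in CD20-negative libraries. Its relative ezrin, EZR, had 66.5 ± 6.30 FPKM in CD20-positive libraries, against 54.6 ± 0.307 FPKM in CD20-negative libraries, and ITGB1, an integrin chain whose tail binds filamin, had 51.3 ± 7.51 FPKM in CD20-positive libraries, against 44.9 ± 10.1 FPKM in CD20-negative libraries. Known targets of SRF and its partner MRTF outside the other lists had 0 of 5 called, with a median of -0.09. The calponin CNN2 had 42.0 ± 15.1 FPKM in CD20-positive libraries, against 43.5 ± 7.14 FPKM in CD20-negative libraries. CNN3 had 30.0 ± 1.90 FPKM in CD20-positive libraries, against 33.6 ± 3.43 FPKM in CD20-negative libraries, and vinculin, VCL, had 21.7 ± 4.26 FPKM in CD20-positive libraries, against 17.9 ± 1.43 FPKM in CD20-negative libraries.

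Groups that did not overlap were found for 2 of the 55 genes, both higher, EZR and the non-muscle myosin heavy chain MYH9, where 19.6% of all tested genes had none. MYH9 had 74.9 ± 8.43 FPKM in CD20-positive libraries, against 56.8 ± 3.22 FPKM in CD20-negative libraries (difference 0.39, limma adjusted p = 0.357, and 0.0963 in the paired fit). With the FPKM total the differences were -0.23 for EZR and -0.12 for MYH9, which lie 0.27 and 0.38 above the median of all tested genes.

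**Figure D5:**
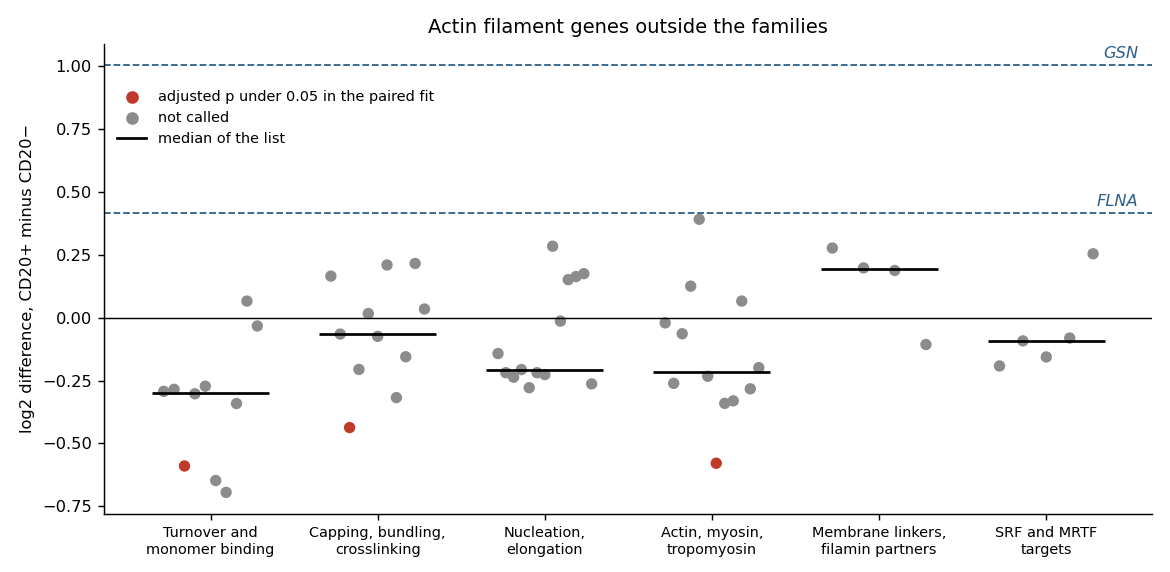
Log2 difference, CD20-positive minus CD20-negative, of the 55 tested actin genes outside the 2 families, by list; red points were called in the paired fit, black bars are list medians, and dashed lines mark GSN (1.00) and FLNA (0.41). The 3 red points lie below 0, and no point reaches the FLNA line.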

How the data were processed

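The deposited table gives 1 value per Ensembl gene and library, with no unit named. The authors' values were read as FPKM because, multiplied by exon length (GENCODE release 29), 98.1 to 98.6% of low values (up to 20 fragments) are whole multiples of 1 step per library within 0.02. The library size implied by that step was not the recovered fragment count. It was 15107847 against 17479732 fragments in CD20-positive replicate 1, and 19782432 against 17915936 in CD20-negative replicate 3. How that size was set is not stated. Per the submitters' processing notes the tools were HISAT2, featureCounts (1.5.0) and DESeq2, on GRCh38 (hg38). Settings and strand use are not stated there. GENCODE matched 58275 of the 58395 identifiers.

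Genes averaging 10 FPKM or more were fitted with limma 3.58.1 (R 4.3.3, trend, robust prior) on log2(FPKM + 1). The procedure was tried on simulated data with independent noise and no replicate effect. That simulation cannot show how the paired fit behaves on libraries that share such an effect. Same-numbered libraries deviated together from their group means (r = 0.73, 0.25 and 0.65), and replicate number was used as the block of the paired fit. The sample labels name no pairing. Across numbers, CD20-positive replicate 3 and CD20-negative replicate 2 had r = 0.59. CD20-positive replicate 2 and CD20-negative replicate 3 had r = 0.54. Both lie above the 0.25 of the replicate 2 pair, so these values do not settle how replicates 2 and 3 pair. Pairing left 2 residual degrees of freedom, and 93.4% of genes took their spread entirely from the prior. The members, lists and rules were chosen with earlier results of these data known. Named genes were the members, VILL, MS4A1, the 3 most abundant genes of each actin list, any gene called without the block, and the 5 genes most like GSN and FLNA. DSTN, CAPZA2, MYL12B, MYH9, the marker genes named and the split by exon length were chosen after values were seen. Some genes of the lists are not reported here.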

Additional observations from a re-analysis of the deposited data

How the results depend on the processing

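Some settings of the paired fit (voom, FPKM total, no filter, pseudocount 0.1, no robust prior) and the recovered fragment total with and without the block were added after seeing the data; the others were planned. The count of called members other than GSN (0 without the block) stayed 0 with the replicate block. It was 1 with the FPKM total, unblocked and with the replicate block, and 1 with the replicate block and the fragment total (CAPG, lower each time), and 1 with the replicate block and the FPKM total without mitochondrial genes (FLNA, higher). With libraries left out it ranged from 0 to 2: CAPG without CD20-positive replicate 1, CAPG and FLNA without replicate 1 in both groups. Members other than GSN without overlap numbered 1 to 3 with libraries left out, 3 without CD20-positive replicate 1 and 3 without replicate 1 in both groups. The share of all tested genes without overlap was not counted for these smaller sets. Groups of fewer libraries separate more easily, so the rise is not read as a trait of the members. Called genes of the actin lists (0) numbered 25 with the FPKM total, 3 with the replicate block, 5 with the block and the total without mitochondrial genes, 5 with the block and voom, 40 with the block and the FPKM total, 22 with the block and the fragment total, 3 with the block and pseudocount 0.1, 3 with the block and no robust prior, and 0 to 11 with libraries left out (4 without CD20-positive replicate 1, 11 without replicate 1 and 3 without replicate 2 in both groups). These counts stand beside the share of all tested genes called: 40.7% with the FPKM total, 54.5% with the block and that total, 32.0% with the block and the fragment total, 26.5% with the block and the total without mitochondrial genes, 17.6% without CD20-positive replicate 1 and 26.9% without replicate 1 in both groups. The share was 21.2% with the block alone, 21.5% with the block and voom, 21.1% with the block and pseudocount 0.1 and 20.8% with the block and no robust prior. Without replicate 2 in both groups it was 19.7%. With the FPKM total, with or without the block, the log2 difference turned to -0.32 for SVIL and -0.0993 for FLNA, and with the fragment total to -0.0091 for SVIL. These totals put the median of all tested genes at -0.50 and -0.18. Relative to it FLNA stood at 0.40 and 0.42, SVIL at 0.18 and 0.18, GSN at 1.00 and 1.01 and CAPG at -0.24 and -0.23. With the FPKM total without mitochondrial genes the difference was 0.52 for FLNA and 0.26 for SVIL. GSN itself ranged from 0.50 to 1.13 over the settings run, above 0 in each. What moved these values was not tested. Depth limits what can be said of VIL1.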

Other observations

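ACTN4, an alpha-actinin of non-muscle cells on the crosslinking list, was listed at no more than 0.0104 FPKM (1 fragment) in CD20-positive libraries and at 0 in every CD20-negative library, whereas its relative ACTN1 had 27.99 ± 2.35 FPKM in CD20-positive libraries, against 24.9 ± 2.35 FPKM in CD20-negative libraries (SD, n = 3); ACTN4 was chosen after its value was seen. No fold is given, and nothing is read from a value listed at 0.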
